A study of Homo sapiens with 5 samples.

Results

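The comparison described here set 1 array of BXPC3 cells against 1 array of Miapaca cells, both lines exposed to control siRNA, to describe the baseline identity of the lines across all genes. A gene entered when its probe had a detection p-value under 0.01 on either of the 2 control arrays. This held for 11825 of the 20043 genes on the array. Of these, 9078 were detected in both lines, 1550 in BXPC3 alone and 1197 in Miapaca alone.

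BXPC3 and Miapaca are established human lines of pancreatic ductal adenocarcinoma. The study silenced LYNX1, which encodes a membrane-anchored modulator of nicotinic acetylcholine receptors, with siRNAs against its open reading frame (ORF) or its 3UTR, and measured RNA on 5 Illumina bead arrays with 1 array per group. The groups were Miapaca with control, Lynx1-ORF or Lynx1-3UTR siRNA and BXPC3 with control or Lynx1-ORF siRNA. All 5 cultures were therefore transfected. The siRNA was added 24 h after seeding and total RNA was taken after 72 h of exposure. BXPC3 grew in RPMI-1640 and received 200 nM siRNA with 14 µl of Xtreme gene9. Miapaca grew in DMEM and received 60 pM siRNA, as the labels give that dose, with 4 µl of lipofectamine RNAimax. Line, medium, siRNA dose and transfection reagent cannot be told apart in any value below. Each line was represented by its own cultures alone, with no other tumour or normal duct beside it.

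Pancreatic ductal cells are polarized epithelial cells held together by cadherin, claudin and desmosome contacts and built on simple keratins. Cultured pancreatic carcinomas range from cells that keep this programme to cells that have lost it and carry the intermediate filament vimentin, and the first kind is often grouped with the classical tumour subtype. Inflammatory cytokine genes driven by NF-kB and genes induced by interferon through the ISRE element are further axes along which tumour lines are known to vary.

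Promoter letters of some members of 3 gene lists are shown first, because these lists hold known targets of factors that bind short, defined letters. The sequences are from RefSeq (GRCh38.p14), in windows of 300 bases from 250 bases before to 50 after the gene start, read on the gene's own strand and searched on both strands. Capitals mark the motif or its reverse complement. The interferon response element was searched as GAAANNGAA, the NF-kB element as GGANTTTCC and the E-box as CACCTG, and in none of the 83 list promoters did 2 different motifs overlap. Interferon-stimulated genes with the first motif included the following.
IFI27 (chr14:94110632-94110659, + strand): ggtttcctgGAAAATGAAacctatctca
IFI44 (chr1:78649763-78649790, + strand): acactgagtTTCAGTTTCctttctctga
IFI44L (chr1:78620366-78620393, + strand): cctagtgagGAAAAAGAAagttagtggc
SAMD9 (chr7:93118097-93118124, - strand): ctgagaaatGAAACTGAAaccaaaccta
Cytokine and NF-kB genes with the second motif included these.
TNFAIP3 (chr6:137867183-137867210, + strand): cgtgactttGGAAAGTCCcgtggaaatc
NFKBIZ (chr3:101827759-101827786, + strand): tttggtctgGGAATTTCCagtgtgcaga
CXCL2 (chr4:74099254-74099281, - strand): ggagctccgGGAATTTCCctggcccggg
Epithelial adhesion genes with the E-box, the letters bound by the SNAI and ZEB repressors, included these.
LAD1 (chr1:201399343-201399370, - strand): gggaggggcgcCAGGTGaggcggcggcc
DSG2 (chr18:31498050-31498077, + strand): cgcggcggccaCACCTGgagccgcgcct
CRB3 (chr19:6464200-6464227, + strand): gtgcgctctccCAGGTGagtgactaaac

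Of 29 interferon-stimulated genes with a promoter sequence, 21 (72.4%) held GAAANNGAA, against 8.29% of all 27305 promoters. The 21 with the motif had a median control-pair difference of 3.54 on the log2 scale and 18 of them were at least 2-fold higher in BXPC3, as were 14.7% of all measured genes. Of the 8 without it, 5 were at least 2-fold higher, with a median of 2.27. GGANTTTCC was present in 14 of 28 NF-kB and cytokine promoters (50%) against 1.64% of all promoters. Measured genes with and without it differed between the lines by medians of 2.37 and 1.99. CACCTG was present in 12 of 26 epithelial adhesion promoters (46.2%) against 20.6% of all promoters, with medians of 3.71 and 2.39 with and without it. The motifs were chosen after the differences had been seen, and a match in these windows is a description of letters.

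The array values below are bead intensities as deposited, given in the order control, ORF and 3UTR for Miapaca and control and ORF for BXPC3. Undetected probes read near 100. The Miapaca control array was the brightest, at a mean of 463 over its probes, 1.26 times the 366 of the BXPC3 control array, and the other 3 arrays averaged 343 to 361. Differences are BXPC3 minus Miapaca after background correction and quantile normalization, on the log2 scale. Where a gene was undetected on one array, it was set there to the lowest detected signal of that array, or to its own value where higher, and the difference is written "at least". The number of arrays limits the precision of every value. A single pair of arrays allows no test, so 2 further readings stand beside it. The first is the BXPC3 and Miapaca pair under ORF siRNA, which shares no array with the control pair. The second is a limma fit of line and siRNA over all 5 arrays with 1 residual degree of freedom and Benjamini-Hochberg adjustment over 12842 genes. The 3UTR siRNA was used on 1 array, which its own term fits exactly. The line value of the fit is thus the mean of the control-pair and ORF-pair differences without bounds. For this reason the fit is not a check apart from the 2 pairs. The p-values therefore set that mean against how far the 2 pair differences disagree, moderated over all genes. They do not measure the spread between arrays of a line. An adjusted p belongs to the fitted value and not to the control-pair difference printed beside it. Nothing says the arrays of a line came from independent cultures.

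In the control pair 1741 genes (14.7%) were at least 2-fold higher in BXPC3 and 1695 (14.3%) at least 2-fold lower, together 3436 genes (29.1%). At 4-fold the counts were 671 higher and 413 lower, and at 10-fold 278 higher and 110 lower. The very large differences were thus more often towards BXPC3 although the 2-fold counts were nearly equal. Among the 2-fold genes, 639 of the higher and 438 of the lower were bounds, that is, detected in 1 of the lines. The median over all genes was -0.05. Scaling each array to its median in place of quantile normalization moved this median to -0.38 and turned the split to 1317 higher and 2915 lower, so that 31.1% rather than 50.7% of the 2-fold genes were higher in BXPC3. Of 976 genes with a 2-fold difference and another detected probe, 885 (90.7%) differed in the same direction on all their probes. The brightest probe stands for each gene below, and for some genes another detected probe differed less. Such a probe was under 2-fold for BRCA1 (0.90), CRB3 (0.76), DSP (0.91), GRB10 (-0.04), KRT16 (0.93), MUC4 (0.33), TYMP (0.99), LSS (-0.38), MNX1 (-0.76), MUC1 (-0.09), NUF2 (-0.35), TAGLN (-0.22) and CD44 (-0.27). It was past 2-fold for NQO1 (-1.37) and ACTB (-1.09), whose brightest probes were not.

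The limma fit called 2238 genes (17.4%) higher and 2320 (18.1%) lower in BXPC3 at an adjusted p under 0.05, or 35.5% of genes. It called 1638 of the 1741 genes that were 2-fold higher in the control pair and 1547 of the 1695 that were lower. These genes entered the fit with the control pair included, so the overlap is not independent. With 1 residual degree of freedom the spread is borrowed from all genes (60.6 prior degrees of freedom), and standard errors are close to 0.30 for nearly every gene. A limma fit of line alone, with 3 residual degrees of freedom, called 1881 higher and 1808 lower. Without the BXPC3 control array this fit of line alone called 925 higher and 598 lower, and without the BXPC3 ORF array 908 and 585. In both, the 1 BXPC3 array left is assumed to vary like the Miapaca arrays.

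Across arrays, the correlation of log2 values over 11825 genes was 0.964 to 0.989 for the 4 pairs of arrays within a line and 0.822 to 0.829 for the 6 pairs between lines. Over the 10848 genes measured in both the control pair and the ORF pair, the differences correlated with Pearson's r of 0.895 and Spearman's rho of 0.795, and r was 0.828 over the 8449 genes detected on all 4 arrays. Genes are not independent replicates, so these are descriptions. Of 1727 genes that were 2-fold higher in BXPC3 under control siRNA, 1257 were so under ORF siRNA as well, 72.8% of both lists. Of 1643 that were 2-fold lower, 1089 were also lower, 66.3% of the control list and 65.3% of the ORF list. In the ORF pair itself 1746 of 11607 genes were 2-fold higher and 1718 lower, 29.8% of them.

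**Figure D1:**
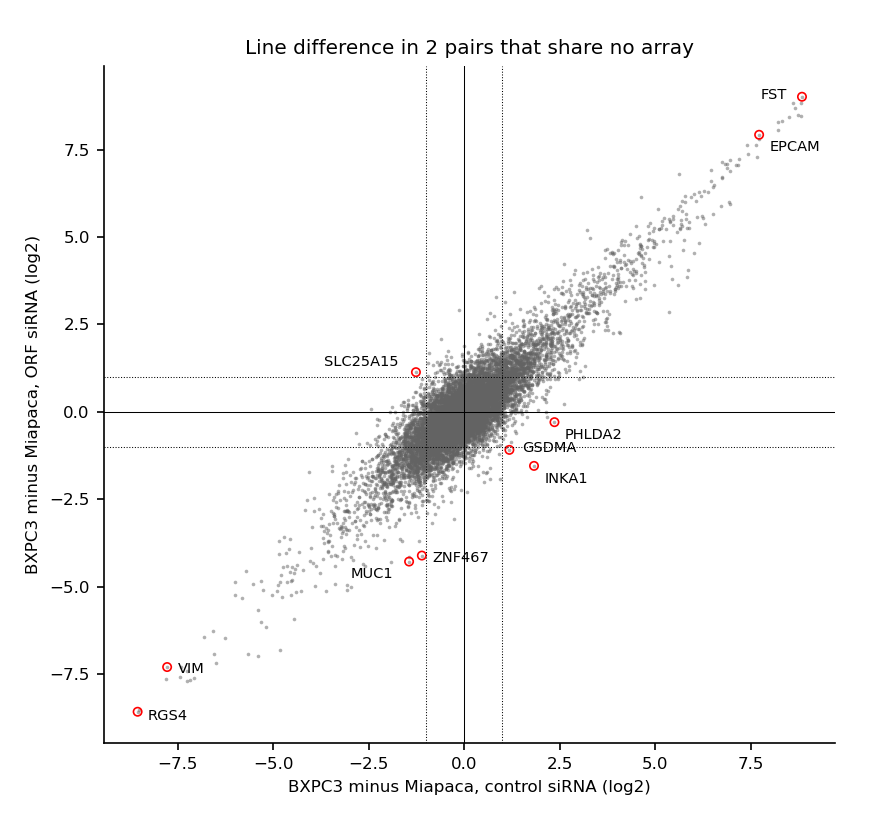
BXPC3 minus Miapaca difference of 10848 genes under control siRNA (horizontal, log2) against the same difference under ORF siRNA (vertical, log2), with 1 point per gene and dotted lines at 2-fold. Most points lie along the diagonal (r of 0.895), and INKA1, GSDMA and SLC25A15 lie beyond 2-fold in opposite directions.

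The genes highest in BXPC3 relative to Miapaca were a follistatin gene, interleukin-1, an interferon-induced gene, a cancer-testis family, and epithelial surface genes. FST, which encodes the activin antagonist follistatin, read 91.9, 86.7 and 87.5 in Miapaca and 9952 and 11528 in BXPC3, at least 459-fold higher in the control pair. IL1A, the cytokine interleukin-1 alpha, read 93.5, 91.6 and 90.5 against 9080 and 7807, at least 423-fold. LCN2, a secreted iron-siderophore carrier, read 121, 102 and 94.1 against 9422 and 8312, a 297-fold difference. In each of these the BXPC3 arrays lay far above all Miapaca arrays. FST and IL1A were at background in Miapaca, and LCN2 was just past the detection limit on the Miapaca control array alone. Of the 15 highest genes, 14 were undetected on the Miapaca control array, and the smallest bound among the 15 was 174-fold. The list also held IFI27 (at least 454-fold), IL1B (at least 299-fold), EPCAM (at least 211-fold), KYNU, a kynureninase of tryptophan breakdown (at least 203-fold), and S100A2, a calcium-binding protein of squamous and basal cells (at least 201-fold). LAD1, a basement membrane anchoring protein, was at least 212-fold higher on its brightest probe, but another detected probe differed by -0.12.

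The same list held 6 GAGE genes, X-linked members of the cancer-testis antigens that are normally expressed in male germ cells. GAGE4 read 98.0, 93.7 and 89.8 in Miapaca and 9591 and 9937 in BXPC3. Of 12 GAGE genes on the array, 11 were at least 2-fold higher in BXPC3, by 0.39 to at least 8.80 over all 12, and all 12 were undetected on every Miapaca array. The copies are nearly identical in sequence, so their probes cannot be taken as separate genes. Beyond GAGE, MAGEB2 (88.7, 82.7 and 88.2 against 1119 and 1318), MAGEA6 and MAGEA3 were also detected in BXPC3 and undetected on the Miapaca control array. PRAME, another cancer-testis antigen, went the other way, with 322, 272 and 300 in Miapaca and 94.8 and 98.3 in BXPC3. Of the 13 measured cancer-testis genes, 6 were 2-fold higher in BXPC3 and 1 lower, beside 14.7% and 14.3% of all measured genes. The 6 included GAGE2A, GAGE7 and GAGE12J, so this count does not stand for separate genes. Of the 39 list genes on the array, 26 were undetected on both control arrays.

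The genes lowest in BXPC3 relative to Miapaca encoded a G-protein regulator, a retinaldehyde dehydrogenase, cytoskeletal proteins and a homeobox factor. RGS4, which shortens G-protein signals, read 10458, 8154 and 7614 in Miapaca and 88.4 and 95.0 in BXPC3, at least 374-fold lower. ALDH1A1, which oxidizes retinaldehyde to retinoic acid, read 11954, 10210 and 10582 against 104 and 108, at least 363-fold. CD81, a tetraspanin, read 4352, 4303 and 1729 against 83.9 and 83.7, at least 145-fold. Their BXPC3 values were at background while the Miapaca values were bright on all 3 arrays. Of the 15 lowest genes, 11 were undetected on the BXPC3 control array, and the smallest fold was 76.2. The others were TM4SF18, VIM, EEF1A2 (a translation elongation factor of neurons and muscle), CLDN11 (a claudin of myelin and testis), HOXB8, DPYSL2 (a regulator of microtubules in axons), S100A4, COL5A2, MYH10 (a non-muscle myosin), PSAP (the precursor of lysosomal saposins), CBS (cystathionine beta-synthase) and DOCK11.

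Epithelial junction genes were higher in BXPC3. Of 32 measured members, 28 were at least 2-fold higher in BXPC3 and none was 2-fold lower, with a median of 3.10 against -0.05 over all genes, 1.54 to 3.32 over the 8 alternative settings, and 2.72 in the ORF pair, where 27 of 34 were 2-fold higher and 2 lower. The limma fit called 28 of 34 tested members higher, against 17.4% of all genes. EPCAM, the epithelial cell adhesion molecule, read 102, 92.1 and 89.6 in Miapaca and 4370 and 5216 in BXPC3 (fit 7.92, SE 0.30, limma adjusted p = 4.96e-32). CDH1, which encodes E-cadherin, read 91.4, 87.8 and 94.0 against 1796 and 1719, at least 6.39 (limma adjusted p = 3.88e-28). The tight-junction gene CLDN7 read 103, 98.2 and 86.2 against 1402 and 1723. For all 3 the Miapaca arrays were at background and both BXPC3 arrays far above it. In all, 17 of the 32 were detected in BXPC3 and undetected in Miapaca under control siRNA, and 0 the reverse. The desmosome genes DSG2, DSP and JUP were detected in both lines, so their differences were measured. DSG2 read 376, 251 and 223 against 3369 and 3338, a difference of 4.09. PKP2, another desmosome member, and the tetraspanin gene CD9 gave differences of 1.05 and 0.05, and neither passed the limma fit (adjusted p = 0.133 and 0.174).

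Keratins showed both directions. KRT7, a keratin of ductal epithelium, read 100, 90.0 and 88.7 in Miapaca and 2626 and 3196 in BXPC3, at least 6.96 on the log2 scale. KRT19, the other classical duct keratin, was present in both lines, with 827, 1698 and 528 in Miapaca and 4474 and 4062 in BXPC3, a difference of 3.17. KRT8, a keratin of simple epithelium that pairs with KRT18, was higher in Miapaca, with 5195, 6940 and 4528 against 1339 and 1460 (-1.44, limma adjusted p = 1.07e-06). KRT18 read 265, 283 and 194 against 213 and 208, a difference of -0.05 in the control pair and -0.93 in the ORF pair (limma adjusted p = 0.224), but another detected KRT18 probe differed by 1.05 in the control pair. Miapaca therefore had detectable KRT8, KRT18 and KRT19 although EPCAM, CDH1 and KRT7 were at background. KRT16 and KRT5, keratins of stratified epithelium, were detected in BXPC3 (432 and 270 on its control array) and undetected in Miapaca. Of 10 measured keratins 6 were 2-fold higher in BXPC3 and 1 lower, beside 14.7% and 14.3% of all measured genes.

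The mesenchymal list held large differences in both directions. Of 20 measured members 7 were 2-fold higher and 6 lower in BXPC3, and the median lay between -0.36 and 0.14 over the settings. VIM, vimentin, read 16636, 19424 and 16504 in Miapaca and 154 and 199 in BXPC3, a 219-fold difference (limma adjusted p = 5.75e-31). EMP3, an epithelial membrane protein family member, read 6104, 5897 and 4344 against 702 and 747 (-2.73). The smooth-muscle genes MYL9 and TAGLN were also lower in BXPC3, at least -2.25 and -1.98. In the opposite direction, SNAI2, a repressor of E-cadherin and a mesenchymal regulator, read 107, 85.9 and 94.0 in Miapaca and 948 and 880 in BXPC3, at least 5.29 (limma adjusted p = 7.16e-24). CDH2, N-cadherin, was undetected on the 3 Miapaca arrays (100, 93.3 and 89.3) and weakly detected in BXPC3 (140 and 157). TGFBI, a secreted matrix protein induced by TGF-beta, read 312, 207 and 189 against 2163 and 2272. Vimentin and E-cadherin were thus opposed between the lines, while N-cadherin and SNAI2 were on the same side as E-cadherin. ZEB1, ZEB2, SNAI1, TWIST1 and fibronectin (FN1) were undetected on both control arrays.

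**Figure D2:**
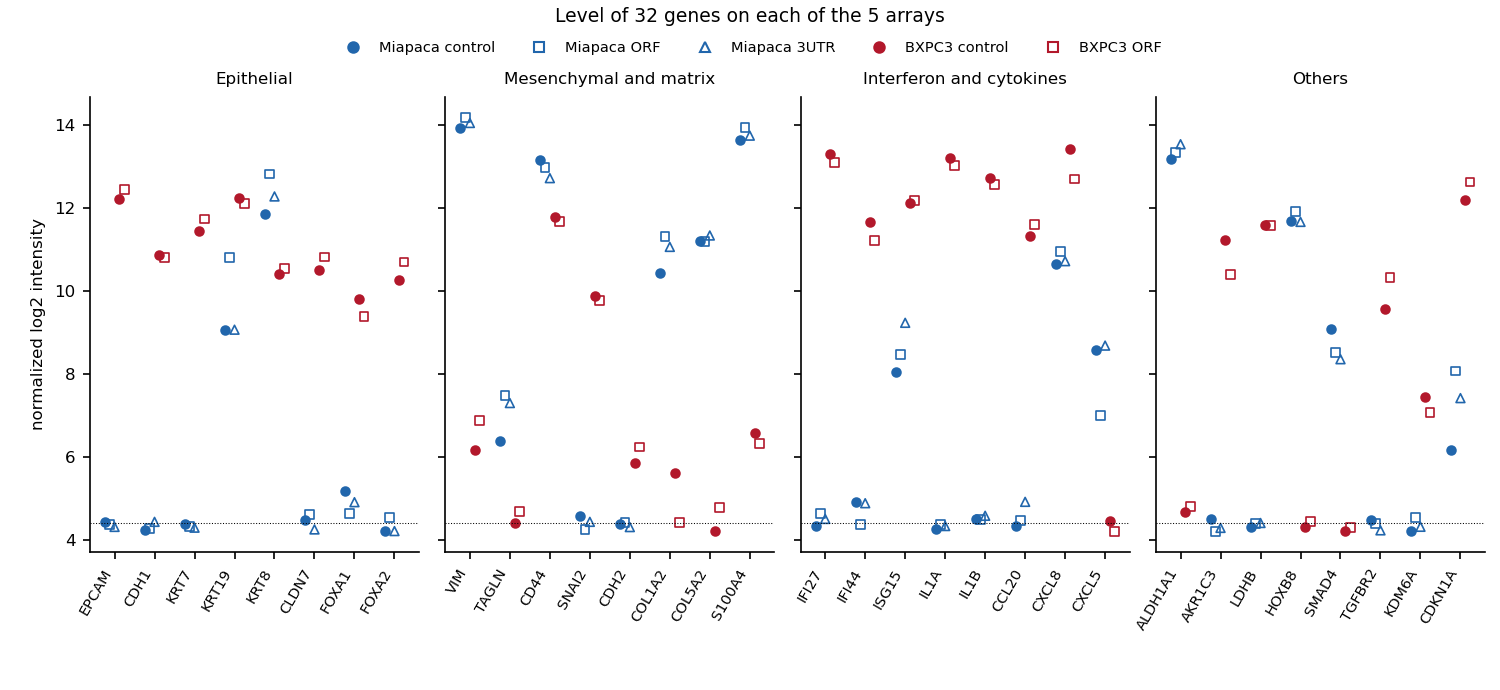
Normalized log2 intensity (vertical) of 32 genes on each of the 5 arrays, with 1 marker per array, Miapaca in blue, BXPC3 in red, filled circles for the control siRNA and open markers for the LYNX1 siRNAs, and the lowest detected signal dotted. The red and blue markers of EPCAM, VIM, IL1A, ALDH1A1 and SMAD4 do not overlap, while KRT19, CD44 and CXCL8 were bright in both lines.

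Against markers of its labelled tissue, BXPC3 had all 9 ductal markers detected under control siRNA and Miapaca 6 of 9. The summed intensity of the 9 was 15396 and 16322 on the BXPC3 arrays and 6498 to 10940 on the Miapaca arrays. This sum does not stand for each marker, since KRT8, MUC1 and SOX9 were lower in BXPC3. KRT18 was nearly level in the control pair on its brightest probe. The 3 ductal markers that Miapaca lacked were KRT7, EPCAM and CDH1. Of 4 mesenchymal markers, 2 (VIM and CDH2) were detected in BXPC3 and 1 (VIM) in Miapaca. Their summed intensity was 469 and 544 in BXPC3 and 16786 to 19701 in Miapaca. The Miapaca sum was nearly all VIM (16636, 19424 and 16504), as ZEB1, CDH2 and FN1 were undetected on every Miapaca array. The endocrine markers INS, GCG, SST and CHGA were undetected on all 5 arrays, and 1 of 5 acinar markers (CEL) was detected on each control array. Among the fibroblast markers COL1A2 was detected on both control arrays, while COL1A1, DCN, LUM and PDGFRB were undetected. Of the blood markers CD68 was detected (543 and 473) and PTPRC, CD3E and HBB were undetected. Of the endothelial markers CDH5 was detected on the Miapaca control and 3UTR arrays (164 and 154) and just past the limit on the BXPC3 ORF array (109), and PECAM1 and VWF were undetected on all 5. The part of other cells in these cultures was not tested.

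Transcription factors of epithelial and pancreatic lineages were more often on the BXPC3 side, with several on the Miapaca side. FOXA2, a pioneer factor of endoderm, read 87.9, 96.6 and 83.4 in Miapaca and 1221 and 1605 in BXPC3, at least 5.79. OVOL2, an epithelial repressor of mesenchymal genes, read 100, 101 and 86.1 against 765 and 769. FOXA1 read 126, 99.1 and 104 against 908 and 702, a difference of 4.62, and ELF3, an epithelial Ets factor, differed by 3.68. Of 21 measured factors 11 were 2-fold higher and 3 lower in BXPC3, beside 14.7% and 14.3% of all measured genes. The count lower is near the share over all genes. The list median was 1.11 (0.37 to 2.00 over the settings). ISL1, also among the higher factors, read 102, 81.9 and 85.4 in Miapaca and 191 and 218 in BXPC3, at least 2.27. HES1 differed by 2.56. The 3 factors 2-fold lower were SOX9, MNX1 and PAX6. SOX9, a regulator of duct and progenitor cells, read 1234, 612 and 678 in Miapaca and 293 and 229 in BXPC3 (-1.93, limma adjusted p = 2.04e-07). MNX1, needed for the dorsal pancreas and beta cells, read 426, 240 and 243 against 141 and 146, and PAX6, an islet and eye factor, was undetected in BXPC3. PDX1, CDX2 and NR5A2 were detected in Miapaca and undetected in BXPC3 under control siRNA, with differences of at least -0.50, -0.998 and -0.85. GATA6 and GATA4 were undetected on both control arrays. GATA4 was detected on the Miapaca ORF and 3UTR arrays (113 and 120), and GATA6 on the BXPC3 ORF array (129).

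Genes of the tumour subtypes were higher in BXPC3 on both subtype lists. Of the 28 classical-subtype genes 11 were measured, 8 were 2-fold higher in BXPC3 and none was 2-fold lower, with a median of 2.60 in the control pair and 2.47 in the ORF pair. ANXA10, an annexin of gastric-type epithelium, read 101, 100 and 112 against 1300 and 1000, at least 5.88, and FOXQ1 and ELF3 followed. The remaining 17, among them TFF1, TFF2, CLDN18, TSPAN8 and LGALS4, were undetected in both lines. Of 14 measured basal-like genes, 7 were 2-fold higher in BXPC3 in the control pair and none was 2-fold lower, led by S100A2, KRT7 and FAM83A. In the ORF pair 5 of 14 were 2-fold higher and 2 lower, and the medians were 0.71 and 0.83. The limma fit called 8 of 15 higher and 2 lower. KRT15 differed by -0.29 in the control pair and -1.87 in the ORF pair. Both control-pair list medians were above 0 under all 8 alternative settings, from 0.90 to 3.40 for the classical and from 0.03 to 0.80 for the basal-like list.

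Squamous genes were more often 2-fold higher than 2-fold lower in BXPC3, with large single differences on both sides. SFN, the 14-3-3 sigma protein of stratified epithelium, read 124, 175 and 91.4 in Miapaca and 1954 and 1847 in BXPC3, and SERPINB5 (maspin) was at least 5.66 higher. The proteases KLK6 and KLK5, of the kallikrein family, were lower in BXPC3. KLK6 read 1707, 2630 and 1243 in Miapaca and 100 and 93.1 in BXPC3, at least -5.65, and KLK5 read 726, 560 and 362 against 86.2 and 95.2, at least -4.45. KLK7 differed by at least -0.95, the cornified envelope gene CNFN by -0.92 and KLK11 by at least 0.27, while KLK8 and KLK10 were undetected on both control arrays. Of 18 measured members 8 were 2-fold higher and 2 lower, beside 14.7% and 14.3% of all measured genes.

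Secreted mucosal proteins were mostly detected in BXPC3 alone. Of 17 measured members 11 were 2-fold higher and 3 lower in BXPC3, with a median of 2.07, which became -0.72 when genes had to be detected on both control arrays, because 10 of the 17 were detected in BXPC3 alone. PI3 (elafin) and SLPI, protease inhibitors of mucosa, read 2638 and 1232 on the BXPC3 control array and 94.4 and 101 on the Miapaca control array. MUC4, a membrane mucin of pancreatic cancer, was at least 3.53 higher. TM4SF1, a tetraspanin-like surface protein, was lower in BXPC3 (12627, 10154 and 10054 against 1511 and 2064, a difference of -2.67). MUC1 read 358, 1030 and 204 in Miapaca and 156 and 136 in BXPC3. The Miapaca values of MUC1 spread more widely than most, and its difference was -1.44 in the control pair and -4.28 in the ORF pair.

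The S100 family, small calcium-binding proteins of which many lie in 1 gene cluster, held large contrasts, mostly towards BXPC3. Of 14 measured members 6 were 2-fold higher and 1 (S100A4) lower, beside 14.7% and 14.3% of all measured genes. S100A9, a subunit of calprotectin, read 90.8, 87.4 and 98.7 in Miapaca and 1120 and 878 in BXPC3. S100P, often raised in pancreatic cancer, read 87.2, 102 and 89.8 against 448 and 598. S100A4, a mesenchymal S100 protein, was bright in Miapaca (15044, 15874 and 12976) and read 178 and 162 in BXPC3, a 133-fold difference. S100A6 was bright in both lines (a difference of 0.20 in the control pair, and of -0.30 in the limma fit with adjusted p = 0.486).

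Interferon-stimulated genes were higher in BXPC3 almost throughout. Of 35 measured members 27 were 2-fold higher and none was 2-fold lower, with a median of 2.82 (1.78 to 2.93 over the settings) and of 2.58 in the ORF pair, and the limma fit called 30 of 35 higher. IFI27 read 97.5, 98.9 and 95.9 in Miapaca and 9758 and 8067 in BXPC3, at least 8.83 (limma adjusted p = 5.19e-34). IFI44 read 117, 91.8 and 103 against 3034 and 2222, a difference of 6.75. IFI44L read 79.7, 96.7 and 90.6 against 1173 and 617. These 3 are among the promoters shown above, and the Miapaca arrays were at or near background for each. ISG15, a ubiquitin-like modifier, was detected in both lines, with 450, 383 and 585 in Miapaca and 4164 and 4276 in BXPC3. The antiviral genes MX1 and RSAD2 were undetected in BXPC3 and just above the limit in Miapaca (120 and 115 on its control array). IFITM2 (6983, 8055 and 4760 against 5630 and 4832) and BST2 did not pass the limma fit (adjusted p = 0.562 and 0.822). The group was therefore higher as a list, with single members that were level.

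Genes of class I antigen presentation, which interferon also raises, mostly differed by less. Of 20 measured members 3 were 2-fold higher and 2 lower in BXPC3, with a median of 0.43. These counts are close to the 14.7% higher and 14.3% lower over all measured genes and do not set the list apart. B2M, the light chain of class I molecules, read 3802, 2868 and 2163 in Miapaca and 13032 and 12846 in BXPC3 (2.27, limma adjusted p = 1.31e-08), and the immunoproteasome subunit PSMB8 differed by 2.78. TAP1, the peptide transporter, differed by 0.64 (adjusted p = 0.305).

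NF-kB factors and their cytokine targets formed the third group on the BXPC3 side. Of 30 measured members 25 were 2-fold higher in BXPC3 and 1 lower, with a median of 2.06 (1.28 to 2.12 over the settings) and of 1.51 in the ORF pair. IL1B read 105, 95.5 and 97.7 in Miapaca and 6324 and 5715 in BXPC3, at least 8.23. CCL20, a chemokine for dendritic and Th17 cells, read 98.0, 95.1 and 104 against 2405 and 2923. PTGS2, the inducible cyclooxygenase, read 107, 83.1 and 86.4 against 2439 and 3048. The 3 genes were at background on all Miapaca arrays. The feedback inhibitor TNFAIP3 was at least 6.22 higher and NFKBIZ, an atypical inhibitor protein, 5.93 on its brightest probe, but another detected NFKBIZ probe differed by -0.12. Of the factors themselves, NFKB1 differed by 1.04 and RELA by 0.33. CXCL5, a neutrophil chemokine, was the 1 member 2-fold lower in BXPC3, with 610, 183 and 420 in Miapaca and 98.1 and 86.1 in BXPC3. CXCL1, of the same family, read 851, 1366 and 408 against 1667 and 1248, so that its groups overlapped, and its difference was 1.63 in the control pair and -0.15 in the ORF pair.

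**Figure D3:**
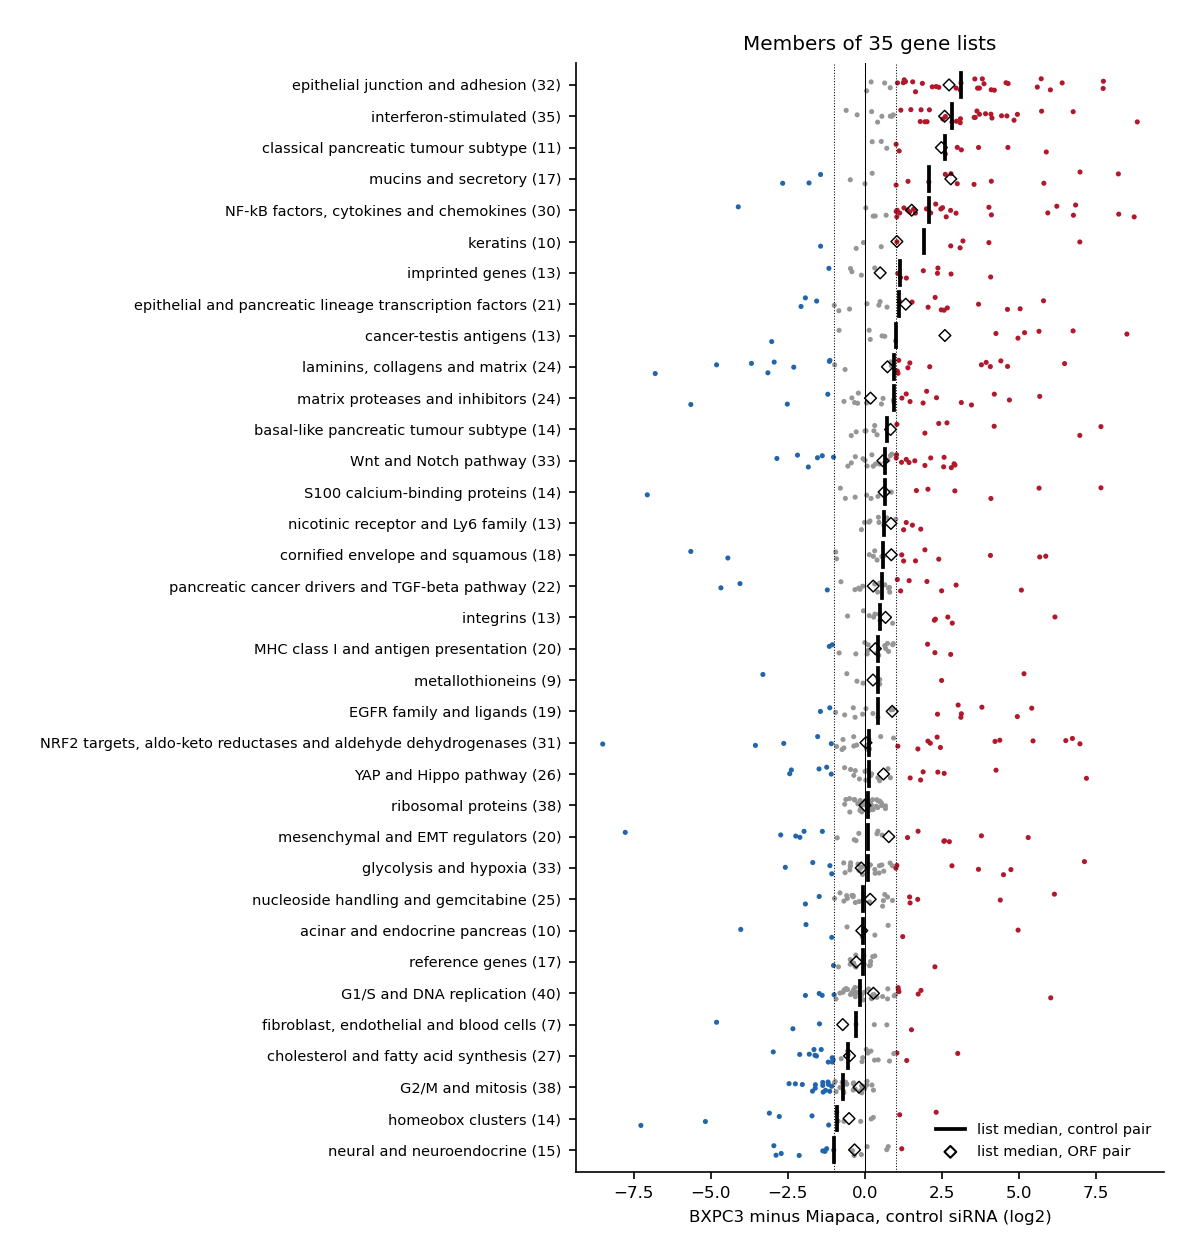
BXPC3 minus Miapaca difference under control siRNA (horizontal, log2) of the measured members of 35 gene lists (rows, with the number of measured members), with 1 point per gene, black bars at the list median, diamonds at the median in the ORF pair, and dotted lines at 2-fold. Epithelial junction, interferon-stimulated and NF-kB genes lie mostly to the right, G2/M genes mostly to the left, and the 38 ribosomal protein genes within 2-fold.

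Drivers of pancreatic cancer and the TGF-beta pathway were described for all 28 list genes with a probe. SMAD4, the common mediator of TGF-beta signals, read 837, 391 and 344 in Miapaca and 85.2 and 92.3 in BXPC3, at least -4.67 (limma adjusted p = 3.38e-20). BXPC3 is known for a deletion of SMAD4. TGFBR2, the type II receptor of the same pathway, was opposite, with 103, 92.8 and 84.7 in Miapaca and 781 and 1244 in BXPC3, at least 5.07. SMAD3, a receptor-activated mediator, read 523, 271 and 265 against 1256 and 1265, a difference of 2.01. In these arrays BXPC3 thus had receptor RNA without SMAD4 RNA above background, and Miapaca the reverse. Among the other members, SMAD7, the inhibitory SMAD, was at least 1.15 higher in BXPC3, SMAD2 differed by -0.16 and ACVR1B and ACVR2A by 0.79 and 0.76, TGFB2 by at least 0.47, and TGFBR1 and TGFB1 were undetected on both control arrays.

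Of the chromatin and kinase drivers, KDM6A, an X-linked histone H3 demethylase, read 89.6, 96.7 and 89.7 in Miapaca and 255 and 213 in BXPC3, at least 2.95. ARID1A, a subunit of the SWI/SNF remodelling complex, read 355, 249 and 274 against 1101 and 1130. MAP2K4, a kinase upstream of JNK, read 577, 139 and 282 in Miapaca and 90.8 and 88.8 in BXPC3, at least -4.06. Each of these was separated between all arrays of the lines, although the Miapaca values of MAP2K4 varied widely. ATM, the DNA damage kinase, was lower in BXPC3 (307, 208 and 284 against 152 and 142, -1.22), while PALB2 and BRCA1 were 1.43 and 1.05 higher. MYC (4378, 3429 and 2096 against 5102 and 4550), RB1, GNAS, ARID2, KMT2C, RBM10, RNF43 and STK11 lay within 2-fold, from -0.78 to 0.80. CDKN2A, CDKN2B, MTAP and KMT2D were undetected on both control arrays. In total 22 of 28 were measured, 7 were 2-fold higher and 3 lower, beside 14.7% and 14.3% of all measured genes. The limma fit called 8 of 23 higher and 4 lower, beside 17.4% and 18.1% of all genes.

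Genes next to those drivers in RefSeq order were read on the same arrays, to show whether neighbours went with them. On chromosome 18, ME2 and ELAC1, the nearest analysed genes before SMAD4, were undetected on both BXPC3 arrays, as was SMAD4. ME2, a mitochondrial malic enzyme, read 1060, 849 and 596 in Miapaca and 89.7 and 84.2 in BXPC3. ELAC1 was dim in Miapaca as well (108, 119 and 102) and undetected on its 3UTR array. On the other side MEX3C read 420, 155 and 390 against 107 and 91.2, just past the detection limit on the BXPC3 control array. MBD2, further along, was detected on every array (715, 514 and 382 against 205 and 212). SKA1 and CXXC1 before ME2 were detected in both lines at like intensity. On the X chromosome FUNDC1, 2 analysed genes before KDM6A, was undetected on the 3 Miapaca arrays (103, 84.4 and 101) and read 256 and 248 in BXPC3. ZNF674, past KDM6A, was bright on all 5. ZNF674-AS1, next to ZNF674, went opposite to KDM6A. It read 202, 196 and 113 in Miapaca and was undetected in BXPC3 (98.8 and 95.3). On chromosome 9, CDKN2A, CDKN2B, MTAP and the interferon genes beside them were undetected on both control arrays. CDKN2B was just past the limit on the Miapaca 3UTR and BXPC3 ORF arrays (105 and 109). CDKN2B-AS1, next to CDKN2A, was detected on the BXPC3 ORF array alone (135), and IFNE on the Miapaca ORF array alone (120). TUSC1 read 254 and 230 in BXPC3 with 102, 89.0 and 83.7 in Miapaca. On chromosome 17 ARHGAP44, 3 analysed genes past MAP2K4, was undetected in BXPC3 as MAP2K4 was (174, 139 and 143 in Miapaca against 89.9 and 93.8). MYOCD, which lies between them, was weakly detected on both BXPC3 arrays (115 and 113). In Miapaca it was detected on the 3UTR array alone (110). ZNF18, just before MAP2K4, was detected on the BXPC3 control array (128), and ELAC2 and ADPRM were detected on all 5 arrays. These are RNA levels, and copy number was not measured.

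**Figure D4:**
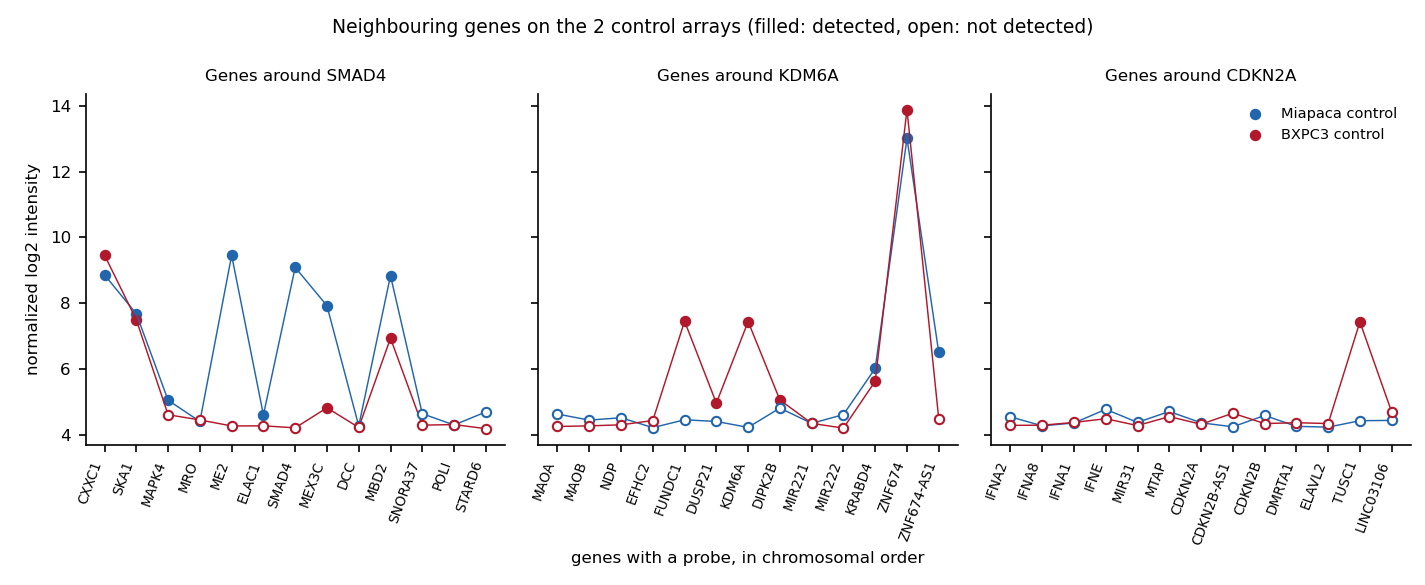
Normalized log2 intensity (vertical) of analysed genes around SMAD4, KDM6A and CDKN2A, in chromosomal order (horizontal), on the Miapaca (blue) and BXPC3 (red) control arrays, with filled points detected and open points not detected. ME2 and SMAD4 are filled in Miapaca and open in BXPC3, FUNDC1 and KDM6A are filled in BXPC3 and open in Miapaca, and CDKN2A and MTAP are open in both.

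Growth factor genes differed in ligands as well as receptors. HBEGF, an EGF receptor ligand, read 346, 490 and 435 in Miapaca and 7491 and 7863 in BXPC3, a difference of 5.40, and TGFA, another ligand, read 93.1, 93.1 and 96.4 against 727 and 841. The receptor MET read 209, 182 and 196 against 1305 and 1496. EGFR itself was nearly level (448, 389 and 226 against 345 and 516, 0.03, limma adjusted p = 0.662), and so was ERBB2 (-0.08, adjusted p = 0.899). The largest differences of this list were therefore in ligands and in MET, ERBB3 and DDR1 rather than in EGFR. Another detected probe of ERBB3 differed by 0.76 and of DDR1 by 0.63. FGFR3 (288, 262 and 170 against 137 and 133) was lower in BXPC3, with a difference of -1.45, and INSR was undetected there.

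Matrix genes differed in both directions. LAMB3, a chain of laminin-332, read 104, 100 and 88.1 in Miapaca and 1889 and 2373 in BXPC3, at least 6.47, and COL7A1, which forms anchoring fibrils, read 130, 106 and 101 against 975 and 872. The laminin chains LAMB1 and LAMA5 differed by 4.40 and 4.06. COL5A2, a fibrillar collagen chain, read 3391, 2248 and 2381 in Miapaca and 85.8 and 107 in BXPC3, at least -6.80. COL1A2, of type I collagen, read 1997, 2413 and 1962 against 130 and 98.1 (-4.81), and COL6A3 and COL4A1 were at least -3.68 and -3.15. Basement membrane genes lay on both sides, since COL18A1, LAMB2 and LAMA2 were also lower in BXPC3, by differences of at least -2.31, -1.16 and -1.14. Of 24 measured members 12 were 2-fold higher and 8 lower in BXPC3. Among the integrins, ITGA2, a collagen and laminin receptor, read 102, 97.6 and 93.1 against 1544 and 1772, and ITGA6, ITGA3 and ITGB5 were 2.83, 2.68 and 2.28 higher. ITGB1, the shared partner chain, was bright in both lines (0.14 in the control pair, and -0.07 in the limma fit with adjusted p = 0.888).

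Among the proteases and their inhibitors 11 of 24 measured genes were 2-fold higher and 3 lower, beside 14.7% and 14.3% of all measured genes. PLAT, tissue plasminogen activator, was at least 4.68 higher in BXPC3 (103, 88.7 and 109 against 630 and 537). TIMP2, a metalloproteinase inhibitor, was lower (4147, 4048 and 2422 against 571 and 709, -2.52). The metalloproteinases MMP2, MMP9 and MMP14 were undetected on both control arrays.

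Detoxifying enzymes differed gene by gene, in both directions. Of 31 measured NRF2-linked genes 12 were 2-fold higher and 5 lower, beside 14.7% and 14.3% of all measured genes. The count lower is near the share over all genes. The list median lay between -0.33 and 0.19 over the settings. ALDH3A1, an aldehyde dehydrogenase of squamous and corneal cells, read 112, 102 and 100 in Miapaca and 3132 and 1663 in BXPC3. AKR1C3, an aldo-keto reductase of steroids and prostaglandins, read 105, 83.2 and 88.4 against 2268 and 1320, and GPX2, a glutathione peroxidase, was at least 6.51 higher. ALDH1A1, described above, was on the Miapaca side, with GSTA4 (430, 315 and 462 against 96.6 and 106) and the transporter ABCC2. The widely used NRF2 target NQO1 did not pass the fit (5989, 5026 and 4094 against 3310 and 3102). It differed by -0.27 in the control pair and by -0.48 in the limma fit (adjusted p = 0.230). AKR1C family members are close in sequence, and their probes may share signal.

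Single genes of glycolysis and hypoxia differed widely. LDHB, the B subunit of lactate dehydrogenase, was at background on the Miapaca arrays (95.7, 92.7 and 93.2) and read 2918 and 2882 in BXPC3, at least 7.11. LDHA, the A subunit, was bright in both (17052, 10708 and 11056 against 11838 and 8903, -0.47, limma adjusted p = 0.406). VEGFA, an angiogenic factor, read 128, 160 and 152 against 1015 and 1130, and EPAS1, the hypoxia factor HIF-2 alpha, was at least 4.49 higher. SLC2A3, a glucose transporter, was undetected in BXPC3 (256, 188 and 183 in Miapaca). Of 33 measured members 7 were 2-fold higher and 4 lower, beside 14.7% and 14.3% of all measured genes, so the counts do not set this list apart.

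Sterol synthesis ran towards Miapaca. Of 27 measured genes 11 were 2-fold lower and 3 higher in BXPC3, with a median of -0.54 (-0.65 to -0.19 over the settings) and of -0.50 in the ORF pair, and the limma fit called 10 lower and 3 higher. LSS, lanosterol synthase, read 1987, 1037 and 1558 in Miapaca and 255 and 272 in BXPC3 (-2.98). IDI1, of the isoprenoid pathway, read 638, 290 and 368 against 175 and 184, and MVD read 381, 219 and 345 against 144 and 129. HMGCS1, an earlier enzyme, was 1.35 higher in BXPC3, and ELOVL6, a fatty acid elongase, 3.01 higher. The media differed between the lines, and the part of the medium in this list was not tested.

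Mitotic genes were lower in BXPC3 under control siRNA. Of 38 members, all measured, 14 were 2-fold lower and none was 2-fold higher, with a median of -0.72 (-1.21 to -0.58 over the settings). NUF2, a kinetochore protein, read 846, 201 and 219 in Miapaca and 182 and 160 in BXPC3 (-2.46). ANLN, of the cleavage furrow, read 2989, 779 and 756 against 500 and 395, and KIF20A read 1876, 906 and 918 against 391 and 312. For NUF2 and ANLN the Miapaca control array was far above the other Miapaca arrays. In the ORF pair the list median was -0.19, with 6 members 2-fold lower and 1 higher, so this difference was larger in the control pair than in the pair that shares no array with it. TYMS, the thymidylate synthase of the DNA replication list, was similar (6825, 934 and 2348 against 1284 and 948), at -1.93 in the control pair and -0.01 in the ORF pair. The Miapaca control array was also the brightest array, and whether this had a part in the mitotic difference was not tested. CDKN1A, the cell cycle inhibitor p21, stood apart with 176, 305 and 214 in Miapaca and 4356 and 5935 in BXPC3 (6.02, limma adjusted p = 1.65e-22).

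Measured position genes and neural genes were mostly on the Miapaca side. HOXB8 read 4577, 3606 and 2962 in Miapaca and 91.6 and 98.8 in BXPC3, at least -7.27, and HOXB2 read 1172, 1550 and 1254 against 97.2 and 83.4. HOXC8 was also undetected in BXPC3, whereas HOXA2 was detected in BXPC3 alone in the control pair (194 against 99.9). Of 14 measured homeobox genes 6 were 2-fold lower and 2 higher, with a median of -0.89. Of 15 measured neural genes 8 were lower and 1 higher, with a median of -1.01 in the control pair and -0.34 in the ORF pair. TUBB3, neuronal beta-tubulin, read 3162, 3700 and 4320 against 361 and 297, and STMN3, a stathmin, read 10413, 13440 and 8351 against 1191 and 963. GAL, galanin, read 3187, 1281 and 1062 against 380 and 382. SCG2, a secretogranin that is not in the neural list, read 724, 511 and 361 against 107 and 105. In the opposite direction, the neural list member NRCAM was at least 1.19 higher in BXPC3 (101, 85.1 and 90.3 against 132 and 122). NES and ZIC2 of that list were higher by at least 0.70 and by 0.75. Of the 34 neural genes on the array 19, among them NEFL, STMN2, GAP43 and NCAM1, were undetected on both control arrays.

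Signalling lists were mixed. In the Hippo list F3, tissue factor, read 96.2, 103 and 103 in Miapaca and 3046 and 3502 in BXPC3, and CCN2, a matricellular YAP target, read 135, 125 and 147 against 835 and 720. TEAD2 and WWTR1, a DNA-binding partner and a coactivator of this pathway, were lower in BXPC3, by differences of -2.44 and -2.39. In the Wnt and Notch list 13 of 33 measured genes were 2-fold higher and 6 lower. The ligands WNT7A and WNT7B were detected in BXPC3 alone under control siRNA (251 and 238 against 90.3 and 96.2), while the Notch ligand DLL3 and the receptor NOTCH3 were detected in Miapaca alone (295 and 162 against 86.7 and 93.4).

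Of the imprinted genes 8 of 13 measured were 2-fold higher in BXPC3 and 1 lower, beside 14.7% and 14.3% of all measured genes. In the ORF pair 5 of 14 were 2-fold higher and 2 lower. The median was 1.15 in the control pair and 0.49 in the ORF pair. MAGEL2 differed by 1.06 in the control pair and -0.67 in the ORF pair. H19, a maternally expressed long non-coding RNA, read 101, 162 and 95.5 in Miapaca and 446 and 541 in BXPC3. SGCE and GRB10 were higher too, by at least 2.79 and 2.35, and SNRPN was lower (541, 497 and 673 against 228 and 250). Of nucleoside and gemcitabine genes 5 of 25 were 2-fold higher and 2 lower, beside 14.7% and 14.3% of all measured genes, so the counts do not set this list apart. UPP1, uridine phosphorylase, read 237, 448 and 247 against 7571 and 11753, and TYMP, thymidine phosphorylase, read 231, 188 and 165 against 2189 and 1579. Among metallothioneins MT1F was detected in BXPC3 alone (820 and 890 against 90.2, 93.0 and 90.8) while MT2A was bright in both. The zinc importer SLC39A10 was lower in BXPC3 (698, 291 and 291 against 125 and 134).

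The silenced gene was not detected. Both LYNX1 probes were undetected on all 5 arrays (83.1 to 105.5), so its level could not be compared between the lines and its silencing could not be checked here. SLURP2, from the same locus, was detected on the BXPC3 control array alone (110). Of the nicotinic receptor subunits, CHRNA5 was detected on all 5 arrays (509, 258 and 249 against 407 and 473, a difference of 0.13, limma adjusted p = 0.172). CHRNB1, CHRNA2 and CHRNA10 were near the limit, with differences of 0.71, 0.45 and -0.01. CD59, a complement inhibitor of the Ly6 family, was 1.81 higher in BXPC3 (307, 218 and 171 against 624 and 677). Of 13 measured members 4 were 2-fold higher and none was 2-fold lower.

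Genes meant to be level were mostly so. All 38 ribosomal protein genes lay within 2-fold, with a median of 0.10 (-0.05 to 0.10 over the settings). Of 17 reference genes 15 lay within 2-fold. The exceptions were B2M, given above, and PPIA, cyclophilin A, on a dim probe (270, 190 and 198 against 150 and 139, -1.02). ACTB differed by -0.08 and GAPDH by -0.48.

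Probes for 515 microRNA genes were on the array. They read the precursor or host RNA and not the mature microRNA. Of 45 measured, 2 were 2-fold higher in BXPC3 and 3 lower, smaller shares than the 14.7% and 14.3% of all measured genes. MIR205, whose product is known in epithelium for repressing ZEB factors, read 97.9, 90.0 and 86.6 in Miapaca and 206 and 148 in BXPC3, at least 2.46. MIR125B2 read 250, 167 and 191 against 105 and 116, a difference of -2.23. Their main mature products in RefSeq (GRCh38.p14), with the seed (bases 2 to 8) in capitals, have different seeds.
hsa-miR-205-5p: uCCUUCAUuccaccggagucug
hsa-miR-125b-5p: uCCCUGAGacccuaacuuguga

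The 5 genes whose control and ORF pairs differed most were low to moderate in intensity, and for each the Miapaca ORF array was the highest Miapaca array. ZNF467 read 140, 413 and 359 in Miapaca and 81.5 and 90.2 in BXPC3, a difference of at least -1.11 under control siRNA and -4.11 under ORF siRNA. NDRG4 read 162, 419 and 168 against 99.9 and 96.6, at least -1.45 and -4.14. MUC1 is given above. INKA1 read 150, 360 and 132 against 268 and 194, and PHLDA2, an imprinted placental gene, read 155, 452 and 141 against 372 and 414. Of the 10848 genes, 3 were 2-fold apart in opposite directions in the pairs, INKA1 (1.83 and -1.55), GSDMA (1.18 and -1.09) and SLC25A15 (-1.26 and 1.13).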

How the data were processed

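Total RNA from 5 cultures, 1 per group, was labelled as biotinylated cRNA and hybridized to Illumina Human Sentrix-12 bead arrays, per the labels' protocols. The deposited table holds mean bead intensity and a detection p-value per probe, per the file headers. A second deposited table of the authors holds processed intensity values and served as an alternative. How they were processed, and with which scanner software, was not given in the sources used here.

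The gene names of 30113 of 48107 probes came from GEO's platform annotation, updated through RefSeq, and 8 probes with several symbols and 17986 unlisted probes were left unnamed. Intensities were background-corrected and quantile-normalized with limma's neqc (limma 3.58.1, R 4.3.3, offset 16) over all 5 arrays, with background inferred from detection p-values, and put on the log2 scale. The probe with the highest mean stood for its gene. Genes with a detection p under 0.01 on either control array were used, and undetected values were raised to the lowest detected signal. Differences of the control pair have no test. The line fit used limma's lmFit and eBayes with line and siRNA as terms, Benjamini-Hochberg adjusted over 12842 genes, and was tested on simulated data.

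Named genes were the 15 highest and 15 lowest of the control pair with the same direction at 2-fold in the ORF pair, the 4 highest and 4 lowest of each list past 2-fold, all drivers, LYNX1, SLURP2 and nicotinic subunits, the 5 genes whose pairs differed most and the 10 smallest p-values. Neighbours, undetected or level genes, promoters and motifs were chosen after their values were seen. The members and lists were chosen with earlier results of these data known. Sex-linked marker genes (8) are not named.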

Additional observations from a re-analysis of the deposited data

Results flagged for a closer look

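INKA1, which encodes an inhibitor of the kinase PAK4, and PHLDA2 stood out because their line difference changed sign between the siRNAs with all 4 arrays detected. INKA1 was higher in BXPC3 by 1.83 on the log2 scale under control siRNA and differed by -1.55 under ORF siRNA. PHLDA2 was higher by 2.36 under control siRNA and differed by -0.30 under ORF siRNA. Each condition has 1 array per line, and the difference between the conditions was not tested. For both genes the Miapaca ORF array was the highest of the Miapaca arrays, and the limma fit over all 5 arrays gave 0.14 (adjusted p = 0.802) for INKA1 and 1.03 (adjusted p = 0.0148) for PHLDA2.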

How the results depend on the processing

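No paired analysis was possible because each group had 1 array and the sample titles give no replicate number. Against 1741 genes higher and 1695 lower, the authors' deposited values gave 1035 and 772, bead intensities without background correction 962 and 793, median scaling 1317 and 2915, and detection on both control arrays 1101 and 1257. Normalizing the 2 control arrays alone, a detection p under 0.05, the mean over detected probes and values without the bound gave 1632 to 1829 higher and 1618 to 1797 lower. Of 35 lists, 21 had a median at least 0.5 from 0, against 9 with the authors' values and 9 without background correction. The median of mucosal secretory genes became -0.72 when detection on both arrays was required. Of 204 named genes, 36 with the authors' values, 38 without background correction and 5 with median scaling fell under 2-fold, and none changed direction. A limma fit of line alone called 1881 higher and 1808 lower, against 2238 and 2320 with siRNA as a term, and 3570 genes were called by both fits. Leaving out 1 array at a time was run in the fit of line alone and gave 908 to 1908 genes higher and 585 to 1897 lower, with the low ends reached without a BXPC3 array. Dim genes on 1 array per group have no replicate check, and bounds understate their differences.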
